A study of Homo sapiens with 6 samples.

Results

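BNIP3, DDIT4, HILPDA and NDRG1 are 4 genes that human cells transcribe more strongly when oxygen is short. They were picked from the hypoxia-induced genes because their log2 differences between A549 cells grown with and without LA717 were among the largest positive ones, so these differences are given as a description and carry no test. Each gene is represented by 1 probe set on the array, which makes 4 of 53617 probe sets, and 4 of the 14884 genes that the annotation used here names.

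The A549 line, established from a human lung adenocarcinoma, was kept in 2D culture for 7 days in DMEM with 10% serum, in wells of 96-well attachment plates. The LA717 group (3 arrays) received 0.03% (w/v) LA717, an agar of low molecular weight, and the control group (3 arrays) received Milli-Q water instead. The labels name no genetic change in either group and no oxygen level. The comparison asks whether the agar by itself changes transcription in attached cells. One label of the LA717 arrays names a low-attachment plate, against their titles and the treatment protocol, and if that label were right the plate and the agar could not be told apart. The labels do not say that the 3 collections of a group were separate cultures, so the errors below measure the spread between these samples, which may be technical. The values are bulk averages, in which a difference shared by all cells and a difference in the share of expressing cells cannot be told apart.

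Oxygen-dependent prolyl hydroxylases (the EGLN enzymes) mark the alpha subunits of the hypoxia-inducible factors (HIF1A and EPAS1) for destruction by the VHL ubiquitin ligase. When oxygen is limiting the alpha subunits persist, pair with ARNT, and bind hypoxia response elements whose core reads ACGTG or GCGTG. The 4 genes act at different places downstream. BNIP3 is a receptor in the outer mitochondrial membrane that recruits the autophagy machinery to mitochondria. DDIT4 (also REDD1) restrains the growth kinase complex mTORC1 through the TSC1 and TSC2 proteins. HILPDA is a small lipid droplet protein that inhibits the triglyceride lipase PNPLA2. NDRG1 is a cytoplasmic protein named for its repression by N-myc, and it is widely used as a marker of hypoxic tumour cells.

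BNIP3 and DDIT4 are both known HIF targets. The stretches upstream of both genes are shown because the upstream sequences used here held none for HILPDA or NDRG1. They are the 250 bases before the annotated start in NCBI RefSeq (GRCh38.p14), chr10:131981924-131982173 on the minus strand for BNIP3 and chr10:72273674-72273923 on the plus strand for DDIT4, printed 5′ to 3′ along the gene. Capitals mark matches to ACGTG or GCGTG on either strand, so that a match on the opposite strand reads CACGT or CACGC.
BNIP3: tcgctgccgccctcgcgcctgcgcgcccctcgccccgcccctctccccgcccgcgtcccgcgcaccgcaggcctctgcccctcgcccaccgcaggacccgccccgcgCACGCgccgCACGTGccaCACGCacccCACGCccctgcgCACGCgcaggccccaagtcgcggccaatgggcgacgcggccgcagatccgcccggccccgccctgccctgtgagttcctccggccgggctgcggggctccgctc
DDIT4: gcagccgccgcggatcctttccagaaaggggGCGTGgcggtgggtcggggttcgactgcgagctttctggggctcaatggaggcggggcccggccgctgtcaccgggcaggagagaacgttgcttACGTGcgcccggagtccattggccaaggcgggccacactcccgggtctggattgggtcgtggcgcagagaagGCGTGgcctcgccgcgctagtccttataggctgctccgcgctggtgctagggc

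In BNIP3 the letters ACGTG occurred at 133 to 129 bases before the start and, because CACGTG is a palindrome, also on the opposite strand 1 base further out. GCGTG occurred 4 times on the opposite strand around it. In DDIT4 ACGTG stood 125 to 121 bases before the start, with GCGTG matches at 219 to 215 and 53 to 49. Such short words are frequent. ACGTG was found in 18.7% and either word in 43.1% of 27305 windows of the same length, and either word in 19 of 25 windows (76%) of the other hypoxia-induced genes listed below. Both windows were rich in G and C (81.6% in BNIP3 and 68.8% in DDIT4), and the shares were not matched for base composition. HILPDA and NDRG1 were not analysed for sequence here.

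The 6 arrays had nearly the same distribution of log2 intensity, with medians from 3.19 to 3.23, and pairs of arrays correlated across probe sets with r from 0.990 to 0.991. Of 6 epithelial markers named in the annotation, KRT18 (11.1 ± 0.093 in control, log2 intensity, SD, n = 3) and EPCAM (7.23 ± 0.077) were the brightest. CLDN4 (4.04 ± 0.21) was dim. The mean level of the 6 lay between 6.75 and 6.85 in control and between 6.69 and 6.85 with LA717. As a mean level, alveolar type 2 markers lay between 3.59 and 3.81 in control and between 3.62 and 3.67 with LA717, endothelial markers between 3.44 and 3.49 and between 3.34 and 3.46, somewhat above the array medians. Only 2 of 9 genes known to be high in A549 cells, 2 of 7 fibroblast markers and 2 of 7 leukocyte markers carried a name in the annotation, so these lists check little. Fibroblast markers lay between 3.78 and 4.11 in control and between 3.64 and 3.79 with LA717, and the leukocyte markers LYZ and CD14 between 5.68 and 5.76 and between 5.28 and 5.67, all 4 genes being lower in the LA717 mean, and their part in the results was not tested. With 3 arrays per group, precision is limited throughout.

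BNIP3 had the largest difference of the 4 genes. Its log2 intensity was 9.35, 9.38 and 9.46 in control replicates 1, 2 and 3, and 9.65, 9.80 and 9.84 in LA717 replicates 1, 2 and 3. All LA717 arrays were above all control arrays, with a gap of 0.20 between the nearest pair, LA717 replicate 1 and control replicate 3. The means were 9.39 ± 0.056 and 9.76 ± 0.096 (SD, n = 3), and the difference of 0.37 (SE 0.091 in the limma fit over all probe sets) corresponds to 1.29-fold. In each of the 4 genes the difference was larger than the SD within either group. Since they were chosen on the difference, nothing is read from this.

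DDIT4 had the smallest control SD of the 4 genes, with values of 8.75, 8.73 and 8.69 in replicates 1, 2 and 3. With LA717 they were 8.94, 9.10 and 9.04 in the same order. The groups did not overlap and lay 0.19 apart at their nearest arrays, control replicate 1 and LA717 replicate 1. The means of 8.73 ± 0.033 and 9.03 ± 0.079 (SD, n = 3) differed by 0.30 (SE 0.086), or 1.23-fold.

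HILPDA was at 8.33, 8.30 and 8.23 in control replicates 1, 2 and 3, and at 8.57, 8.74 and 8.44 with LA717. The LA717 arrays were spread over 0.29, against 0.10 in control, and the lowest of them, replicate 3, stood 0.11 above the highest control array. The means were 8.29 ± 0.053 and 8.58 ± 0.15 (SD, n = 3), a difference of 0.30 (SE 0.10) or 1.23-fold. Without LA717 replicate 2, which was the highest array, the difference was 0.22.

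NDRG1 differed from the other 3 genes in that its groups overlapped. Its control values were 5.48, 5.56 and 5.81 and its LA717 values were 5.998, 5.72 and 5.995, in replicates 1, 2 and 3. LA717 replicate 2 lay below control replicate 3 by 0.088. The means of 5.62 ± 0.17 and 5.90 ± 0.16 (SD, n = 3) differed by 0.29 (SE 0.13), or 1.22-fold. Without control replicate 3 the difference was 0.38, and without control replicate 1 it was 0.22.

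**Figure D1:**
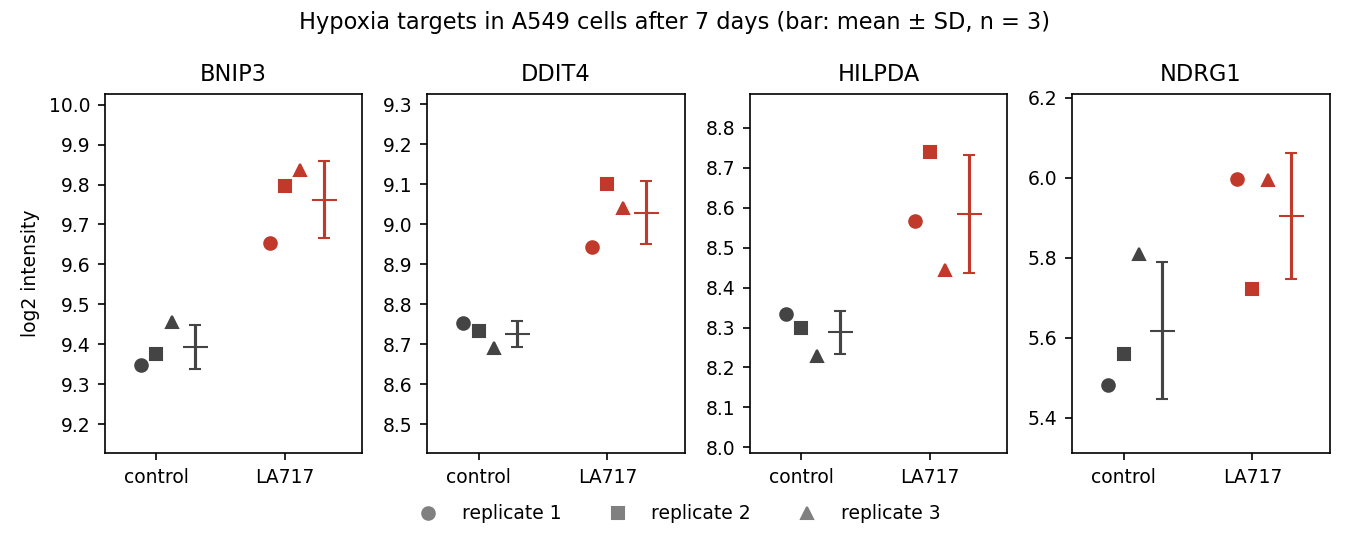
Log2 intensity (vertical axis, a window of the same height in each panel) of BNIP3, DDIT4, HILPDA and NDRG1 on each of 3 control and 3 LA717 arrays, with marker shape for the replicate number and a bar for the mean ± SD. The LA717 points lie above all control points for BNIP3, DDIT4 and HILPDA, and for NDRG1 LA717 replicate 2 (5.72) lies below control replicate 3 (5.81).

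Groups that did not overlap were thus found in 3 of the 4 genes, where 4.86% of all genes were higher with LA717 without overlap, and since the genes were chosen on this difference nothing is read from that count. Across all probe sets 0 of 53617 (0.0%) passed limma at an adjusted p under 0.05, and 2845 had an unadjusted p under 0.05. The second count is near what a threshold of 0.05 passes when no probe set differs. A difference of at least 2-fold, the selection used in the study's methods, was reached by 0.162% of probe sets. No probe set that names a gene reached it, and so none of the 4 genes, whose folds ran from 1.22 to 1.29. In the order of all 14884 genes by difference, 95 lay above BNIP3, 244 above DDIT4, 264 above HILPDA and 297 above NDRG1. The log2 differences of DDIT4, HILPDA and NDRG1 lay within less than 0.02 of one another, well inside their SE, so their order carries no weight.

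The spread within groups differed between the 4 genes. It was not itself a criterion of the choice, but choosing large differences of means favours genes that vary more. The spread is therefore not free of the choice. The pooled SD of BNIP3 was 0.079, near the median of 0.070 for the 308 genes with a mean intensity within 0.5 of its own. That of DDIT4 was 0.061, against 0.076 over 630 genes of like intensity. HILPDA (0.11 against 0.080 over 865 genes) and NDRG1 (0.16 against 0.12 over 2058 genes) varied more than 76.0% and 72.0% of genes of like intensity. In 3 of the 4 genes, all except NDRG1, the SD was larger among the LA717 arrays than among the control arrays.

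The 4 genes did not move together from array to array inside a group. Pearson's r of the deviations from the group means over the 6 arrays, in which the difference between the groups is removed, was positive for DDIT4 with HILPDA (0.53), BNIP3 with DDIT4 (0.47) and BNIP3 with NDRG1 (0.18). It was negative for BNIP3 with HILPDA (−0.26), DDIT4 with NDRG1 (−0.78) and HILPDA with NDRG1 (−0.83), and the mean over the 6 pairs was −0.11. Such a value rests on 6 arrays that share their normalization and is a description only. Control replicate 3, for example, was the highest control array for BNIP3 (by 0.062 over the group mean) and NDRG1 (0.19), and the lowest for DDIT4 (−0.036) and HILPDA (−0.058). LA717 replicate 2 was the highest of its group for DDIT4 (0.072) and HILPDA (0.16) and the lowest for NDRG1 (−0.18).

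**Figure D2:**
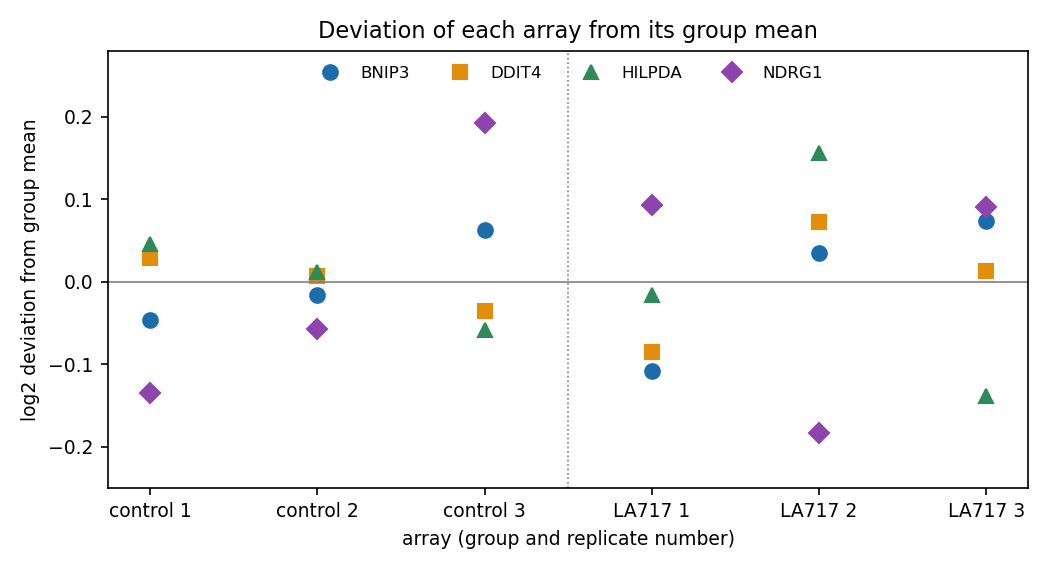
Deviation of each array (horizontal axis, group and replicate number) from the mean of its group, in log2 intensity, for the 4 genes. NDRG1 and HILPDA lie on opposite sides of 0 on all 6 arrays, and DDIT4 follows HILPDA in sign on 5 of them.

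Genes of cell division had the same order of replicates as BNIP3 in both groups, and as NDRG1 on the control arrays only. The mean level of 12 such genes was 6.93, 6.96 and 7.36 in control replicates 1, 2 and 3 and 7.06, 7.29 and 7.51 with LA717, so that control replicate 3 was the highest control array for these genes as for BNIP3 and NDRG1. All 12 were higher in the LA717 mean (median difference 0.19), none without overlap. The part of these genes in the values of NDRG1 and BNIP3 was not tested.

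Genes whose values followed those of each chosen gene most closely over the 6 arrays were sought among 7616 others with a mean at or above that of the median gene-naming probe set. For BNIP3 they were the ribosomal protein gene RPS18 (r = 0.989, n = 6 arrays), the kinase gene CAMK1 (0.988) and MIR486-1 (0.987). For DDIT4 they were the triokinase gene TKFC (0.996), GEMIN7 (0.982) and STK35 (0.981). The closest to HILPDA were ZBTB34 (0.981), the antiviral adaptor gene MAVS (0.971) and the bromodomain gene BRD3 (0.969), and the closest to NDRG1 were MESP2 (0.991), the valyl-tRNA synthetase gene VARS1 (0.985) and the F-box gene FBXW5 (0.980). The 4 sets shared no gene, and none of the 12 was in the hypoxia lists. Those lists hold only 24 of the 7616 genes, so nothing is read from this absence. These r values include the difference between the groups, on which the 4 genes were chosen. With 6 arrays in 2 groups many genes reach such values, 29 having r over 0.95 with BNIP3, 22 with DDIT4, 14 with NDRG1 and 8 with HILPDA.

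Of 53 further genes listed here as hypoxia-induced, 29 carried a name in the annotation, and the difference was positive for 19 of these. Their median was 0.055 (log2), beside a median of −0.0061 and 47.9% positive over all genes. None passed limma in either direction. No overlap between the groups was seen in 5 of the 29, all higher with LA717, beside 4.86% of all genes. They were the matrix cross-linking enzyme gene LOXL2 (0.27, SE 0.086), the histone demethylase gene KDM3A (0.23, SE 0.089), the angiogenic factor gene VEGFA (0.18, SE 0.088), the glycolytic enzyme gene GPI (0.15, SE 0.084) and ANKRD37 (0.10, SE 0.083), the last being dim and named after its values were seen. The lists were drawn up with earlier results on these arrays known, so the counts are not independent evidence of a direction.

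The choice of the 4 genes has a near edge in this list. LOXL2, at 7.53 ± 0.036 in control and 7.80 ± 0.081 with LA717 (SD, n = 3), fell just short of NDRG1 at 0.27 against 0.29. KDM3A followed with 6.55 ± 0.052 and 6.78 ± 0.090, and then the vasodilator peptide gene ADM with 6.505 ± 0.15 and 6.73 ± 0.084. One listed gene lay above BNIP3, the secreted glycoprotein gene STC2, at 5.48 ± 0.35 and 6.01 ± 0.17, with a difference of 0.53 (SE 0.18) and groups that overlapped. STC2 is induced by endoplasmic reticulum stress as well as by hypoxia, and it too was highest in control replicate 3 (5.88) among the control arrays.

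By role the hypoxia-induced genes gave small differences. Glucose uptake and glycolysis genes were positive in 6 of 8, with a median of 0.048, GPI at 0.15, LDHA at 0.086 (SE 0.11) and the phosphoglycerate kinase gene PGK1 at 0.0067 (SE 0.091). Among genes for pH control, vessels and secreted factors 4 of 8 were positive, with a median of 0.0073 and the carbonic anhydrase gene CA12 at −0.094. Among regulators 8 of 11 were positive, with a median of 0.063, and INSIG2, which retains the sterol sensor in the endoplasmic reticulum, stood at −0.20 (SE 0.13). Of the matrix enzymes only LOXL2 and LOX (−0.14, SE 0.11, dim) were named. MIR210HG, the host transcript of a hypoxia-induced microRNA and one of these regulators, was dim and gave 0.22 (SE 0.15) with overlapping groups.

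**Figure D3:**
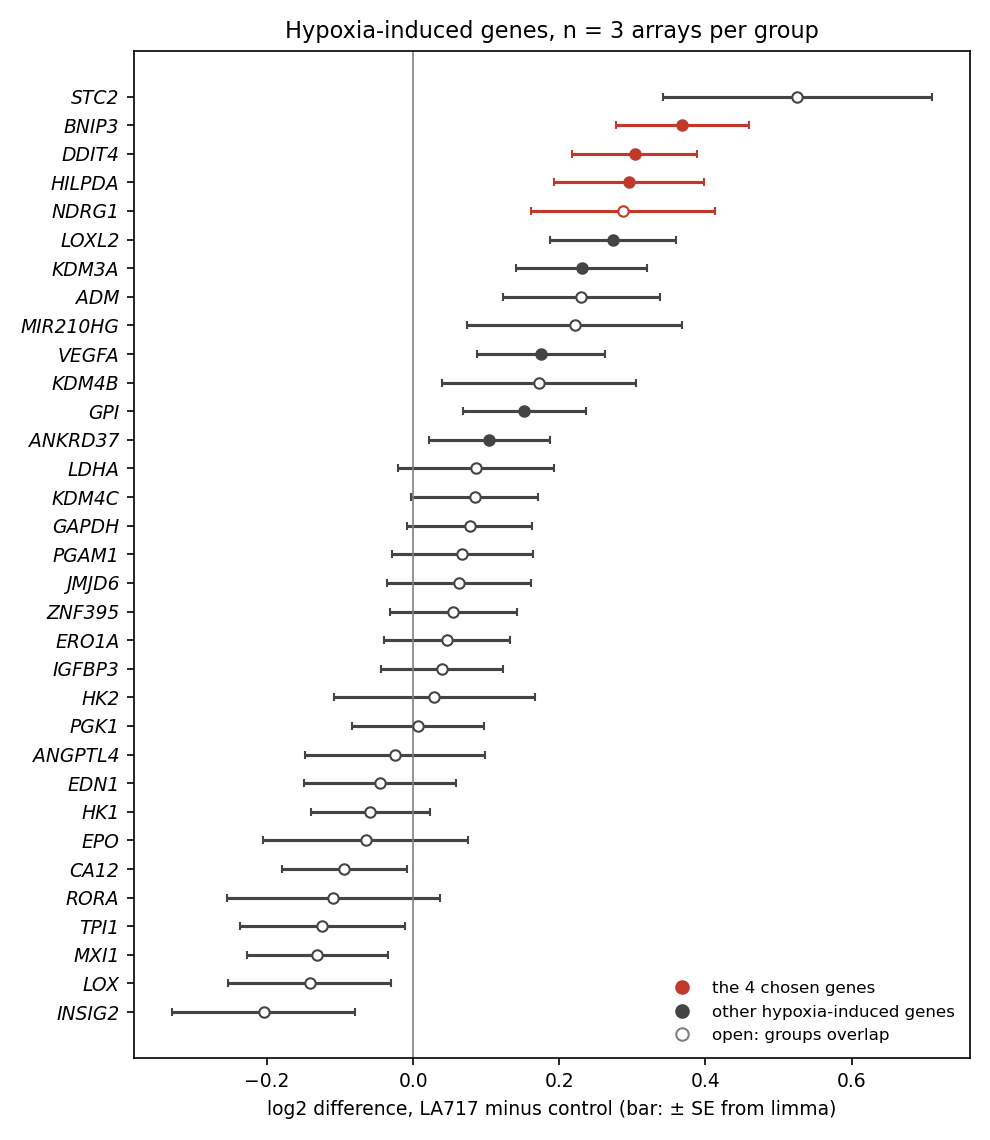
Log2 difference, LA717 minus control, with the SE from limma (bars) for the 4 chosen genes (red) and 29 other hypoxia-induced genes (grey), 3 arrays per group, where open points mark groups that overlap. STC2 (0.53) stands above BNIP3 (0.37), LOXL2 (0.27) lies just under NDRG1 (0.29), and INSIG2 (−0.20) is the lowest.

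The HIF pathway transcripts that carried a name differed little, ARNT2 the most at −0.18 (SE 0.12) with overlapping groups. Of 13 components listed 6 were named, 2 positive and 4 negative, with a median of −0.047, 0 without overlap and 0 past limma. EPAS1, which encodes a second HIF alpha subunit, gave 8.38 ± 0.26 in control cells and 8.34 ± 0.10 in LA717 cells (SD, n = 3, log2 intensity), and ARNT, the common partner, 8.001 ± 0.12 and 7.95 ± 0.019. The prolyl hydroxylase gene EGLN1 was at 8.76 ± 0.0061 and 8.79 ± 0.083. EGLN3, another hydroxylase gene and itself a strong HIF target, was dim at 3.61 ± 0.048 and 3.64 ± 0.21, a difference of 0.030 (SE 0.12). HIF1A, VHL, EGLN2 and HIF1AN were not analysed here, and since the alpha subunits are controlled mainly as proteins, their transcripts do not measure HIF activity.

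Around BNIP3, mitophagy receptors and their partners went both ways, 7 of 15 being positive, with a median of −0.014. BNIP3L, the closest relative of BNIP3 and also a HIF target, was at 9.74, 9.81 and 9.79 in control replicates 1, 2 and 3 and at 9.82, 9.95 and 9.99 with LA717. Its groups were separated by less than 0.01 at their nearest arrays, and its difference of 0.14 (SE 0.089) was smaller than that of BNIP3. The groups also did not overlap for the autophagy protein gene GABARAPL1 (0.18, SE 0.097) and, named after their values were seen, BCL2 (0.17, dim) and the prohibitin gene PHB2 (0.070), which makes 4 of 15 on the high side beside 4.86% of all genes. On the low side was FUNDC1 (−0.12, SE 0.089), another mitophagy receptor gene, beside 6.66% of all genes that were lower without overlap.

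Around DDIT4, the listed genes of mTORC1 and its regulators were more often lower than higher in the mean, 8 of 12 being negative, with a median of −0.14. Most of the 8 are genes whose products restrain mTORC1, but so are most of the 12. Of the restraining genes, TSC2 and AKT1S1 (0.087, SE 0.093) were positive, with overlapping groups. RPTOR and MLST8, which encode subunits of the complex, carried no name in the annotation. No overlap between the groups was seen in 5 of the 12, all lower with LA717, beside 6.66% of all genes, and none passed limma. DDIT4L, the relative of DDIT4, was at 4.99, 4.89 and 4.98 in control replicates 1, 2 and 3 and at 4.82, 4.82 and 4.66 with LA717, a difference of −0.19 (SE 0.091) against the direction of DDIT4. TSC1, which DDIT4 needs to restrain mTORC1, differed by −0.18 (SE 0.096), and its partner TSC2 by 0.066 (SE 0.083) with overlapping groups. TXNIP, known to stabilise DDIT4 protein, had the largest difference of the list at −0.60 (SE 0.15), and −0.57 on a second probe set. The remaining 2 were the stress-induced mTORC1 inhibitor genes SESN3 (−0.25, SE 0.090, dim) and SESN2 (−0.15, SE 0.088), named after their values were seen, while MTOR itself gave −0.018 (SE 0.079).

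DDIT4 is also induced by routes other than hypoxia, and genes that report on these were examined for that reason. In the amino acid and endoplasmic reticulum stress list 4 of 6 were positive, with a median of 0.12, where TRIB3 gave 0.27 (SE 0.25), resting on LA717 replicate 3 (7.76 against 6.73 to 7.11 in control), and ATF4 gave −0.0062 (SE 0.098). Without that array TRIB3 turned negative, at −0.026. Glucocorticoid-induced genes were positive in 2 of 6, with a median of −0.060 and KLF9 at −0.24 (SE 0.085) without overlap. Genes induced by p53, which A549 cells carry unmutated, were positive in 3 of 6, with a median of −0.0093, TP53I3 at 0.12 (SE 0.088) without overlap and TP53INP1 at −0.23 (SE 0.12).

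Around HILPDA, 4 of 15 lipid droplet and lipolysis genes were positive, with a median of −0.053. PLIN2, the main droplet coat protein gene of most cells and a gene that rises with lipid storage, was at 5.40, 5.51 and 5.33 in control replicates 1, 2 and 3 and at 5.58, 5.59 and 5.76 with LA717. Its groups did not overlap, and its difference of 0.23 (SE 0.096) had the same direction as that of HILPDA. PNPLA2, the lipase that HILPDA inhibits, gave −0.069 (SE 0.10), and G0S2, the gene of another of its inhibitors, gave 0.052 (SE 0.10). The coat protein gene PLIN5 (−0.14, SE 0.084) and, named after its values were seen, CIDEC (−0.32, SE 0.12, dim) were lower without overlap.

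Around NDRG1, its 3 relatives did not share its direction, with NDRG2 at −0.092 (SE 0.14, dim), NDRG3 at −0.044 (SE 0.084) and NDRG4 at −0.12 (SE 0.095), all with overlapping groups. MYC, whose protein is known to repress NDRG1, was at 7.66, 7.87 and 7.73 in control replicates 1, 2 and 3 and at 7.88, 7.98 and 7.94 with LA717. Its groups did not overlap, by a margin of under 0.02, and its difference of 0.18 (SE 0.093) had the same sign as that of NDRG1. None of the genes in the 13 lists passed limma in either direction.

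**Figure D4:**
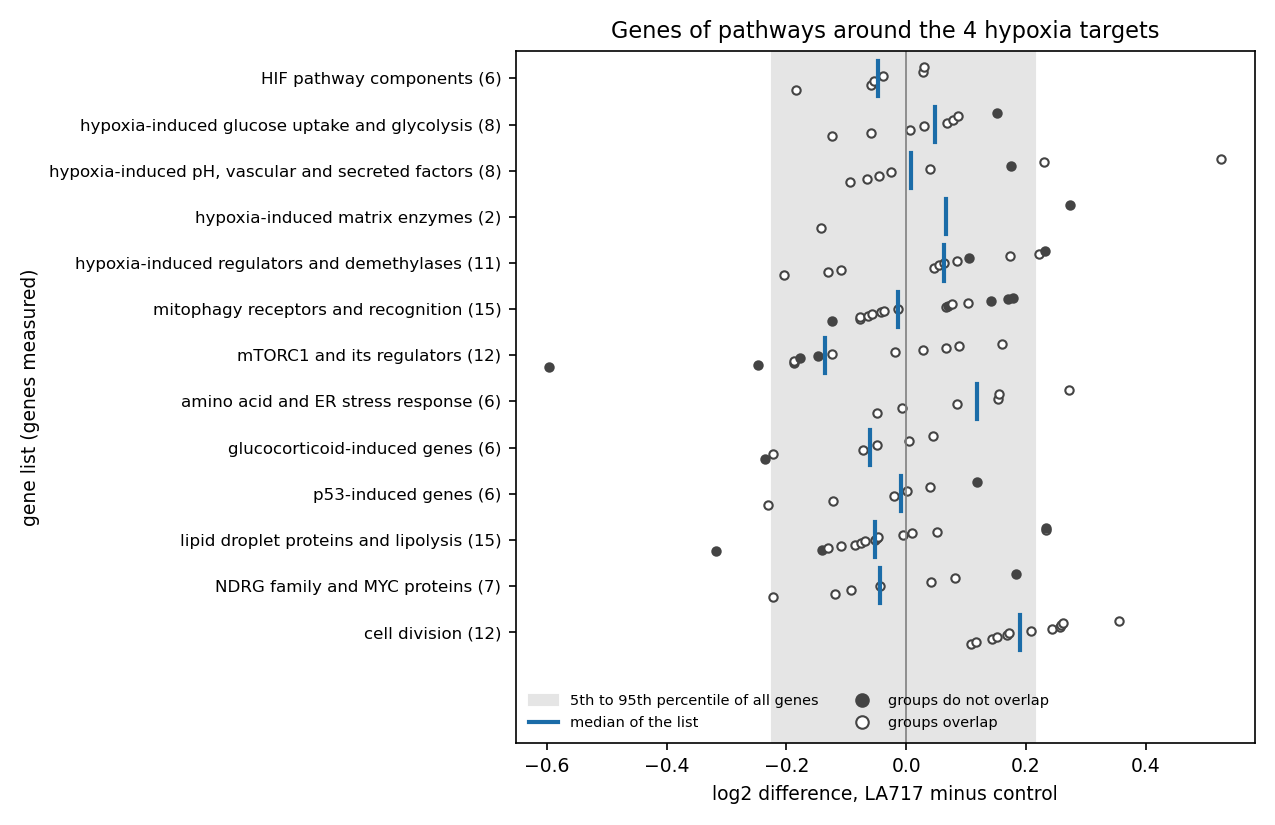
Log2 difference, LA717 minus control (horizontal axis), of the genes of 13 lists (vertical axis, with the number measured), with filled points for groups that do not overlap, a blue line for the median of each list and a grey band from the 5th to the 95th percentile of all genes (−0.22 to 0.22). The mTORC1 list has 5 filled points, all below 0, the 4 hypoxia-induced lists have 5, all above 0, and the cell division list lies wholly above 0 with open points only.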

How the data were processed

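The authors hybridised total RNA from 6 samples (3 control, 3 LA717) to GeneChip Human Gene 2.0 ST arrays and made the deposited log2 values, 1 per probe set and array, with Affymetrix Expression Console, as the submitters' processing notes say. How they were summarised and normalised, and on which build, is not given in the sources used here. Sample titles gave the groups and the replicate numbers. The values were used as deposited. Probe sets were named from the platform annotation (16098 name 1 gene, 37519 none), and where several named a gene the brightest one stood for it.

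LA717 minus control was fitted by limma (version 3.58.1, R version 4.3.3), with a moderated two-sided test per probe set and p-values adjusted over 53617 probe sets by Benjamini-Hochberg. The fit was checked on simulated data. SE are those of this fit. Motifs were searched in RefSeq upstream sequences of 250 bases. The genes named were the chosen 4, HIF pathway genes, paralogs, and the 3 genes most correlated with each of the 4. Up to 4 genes per list were added, with the largest absolute difference among those at or above the median intensity of named probe sets (4.62). Genes named outside this rule, such as PGK1, LOX, MIR210HG, TSC2, MTOR, ATF4, PNPLA2 and G0S2, are not all marked where they appear. The 4 genes and all lists were chosen with earlier results of these data known. Alternatives were other variance models, array weights, the replicate block, other normalizations, filters, probe set means and each array left out.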

Additional observations from a re-analysis of the deposited data

How the results depend on the processing

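The 60 differences of BNIP3, DDIT4, HILPDA and NDRG1 under 15 alternatives each all stayed positive, which their choice favours. With each array left out they ran from 0.33 to 0.42, 0.27 to 0.35, 0.22 to 0.37 and 0.22 to 0.38. The number of hypoxia-induced genes with a positive difference ran from 17 to 21 of 29, their median from 0.046 to 0.072, and the mean r of the deviations from −0.26 to −0.0015. Genes called by limma numbered 0 under every alternative with adjusted p, and 2845 probe sets had an unadjusted p under 0.05. The latter count, from the main fit, is near what that threshold passes when no probe set differs. Probe sets at least 2-fold (87) numbered 57 when dim ones were dropped, and 619 if 1.5-fold is taken. Among those with a gene name they numbered 0, so all 87 lacked a gene name in the annotation. Leaving out 1 array gave 126 to 156 (131 for control replicate 3, 133 for control replicate 2, 145 for LA717 replicate 1, 156 for LA717 replicate 3), and the cause was not tested. The replicate numbers were not taken as pairs, since same-numbered arrays deviated together only weakly over all probe sets (r = 0.024, 0.015 and 0.033). Many of those probe sets are dim, and the cell division genes rose from replicate 1 to 3 in both groups. Pairing among brighter genes alone was not tested. With the replicate block genes called were 0 and probe sets at least 2-fold were 87. For 64 other genes named under the rule above there were 896 values, many of them likewise fixed by construction. Of the 896, 12 changed sign, each time with 1 array left out. They fell in 9 genes (ARNT, ATF3, DUSP1, EGLN1, EGLN3, EPAS1, TRIB3, VLDLR and XBP1). Cell type markers and genes named outside that rule, such as PGK1 and ATF4, were not followed in this way. No signal over background is given with the values, which limits what dim genes can show.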
